A study of Mus musculus with 12 samples.

Results

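The genes described here encode the subunits of the oxidative phosphorylation system, from the mitochondrial and the nuclear genome. They were chosen by symbol among protein-coding genes: mt-Nd, mt-Co, mt-Cytb and mt-Atp genes of mitochondrial DNA, and nuclear Nduf subunits, Sdha to Sdhd, Uqcr, Cox4 to Cox8 and Atp5 genes. This gave 98 of 39086 genes in the count table, of which 13 were mitochondrial and 85 nuclear. By complex, complex I had 45 genes, complex II 4, complex III 9, complex IV 21 and complex V 19. The 8 Ndufaf assembly factors and 11 pseudogenes were left out, and the pseudogene with the most reads reached 35 counts in a library.

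Oxidative phosphorylation takes electrons from NADH at complex I and from succinate at complex II, passes them through complex III to oxygen at complex IV, and uses the proton gradient so built to make ATP at complex V. Mitochondrial DNA encodes core subunits of complexes I, III, IV and V, while complex II and all other subunits are nuclear, so each mixed complex needs transcripts of both genomes. Absorptive enterocytes of the jejunal villus are rich in mitochondria, and enteroendocrine cells (EEC) are the scattered hormone cells between them.

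RNA came from jejunal villi of male mice on the C57BL/6N background, aged 12 weeks, all carrying 1 Neurog3 allele with an eYFP reporter (Neurog3eYFP/+). Neurog3 is the transcription factor that starts endocrine differentiation, so the reporter marks EEC, and the sorted eYFP-positive cells are EEC and the eYFP-negative cells non-EEC, which are every other cell of the villus preparation. Mice were kept on a normal diet (ND, Safe D04) or were moved at 8 weeks to a high fat diet (HFD, D12492), which they ate for 4 weeks. The 4 groups (ND EEC, HFD EEC, ND non-EEC and HFD non-EEC) held 3 libraries each, from 3 mice per diet, and which libraries of the 2 populations come from the same mouse is not labelled. Totals ran from 9543183 to 29054281 counts per library.

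The labelled populations were checked against marker genes. All 12 EEC markers had a positive log2 fold change in EEC under both diets. The edgeR adjusted p was below 0.05 for 12 under HFD and 11 under ND (background 10.2% and 7.91% of genes higher). Their summed level was 13700 to 72500 CPM (counts scaled to library size and between libraries) in EEC libraries against 87.2 to 2720 CPM in non-EEC libraries. The non-EEC libraries differed in what else they held. Summed levels of 16 T cell markers were 13100, 19100 and 34800 CPM in ND non-EEC against 695, 104 and 1030 CPM in HFD non-EEC. All 16 fell with HFD there with an edgeR adjusted p below 0.05 (background 9.15% of genes lower). Summed levels of 18 enterocyte markers were 28700, 5190 and 5000 CPM in ND non-EEC against 52400, 124000 and 101000 CPM in HFD non-EEC. All 18 had a positive log2 fold change with HFD there, 10 with an edgeR adjusted p below 0.05 (background 5.76% of genes higher). ND non-EEC replicate 1 stood apart within its group, with 37000 CPM of goblet cell markers against 2970 and 869 CPM in replicates 2 and 3. In EEC, T cell markers summed to 667 to 4860 CPM under ND and 47.9 to 216 CPM under HFD. Enterocyte markers were also present in EEC libraries, at 22300, 15800 and 24200 CPM under ND and 13000 to 32100 CPM under HFD. In EEC against non-EEC under ND, 16 of 18 enterocyte markers had a positive log2 fold change. All 16 T cell markers had a negative one there. The part of all these markers in the differences below that involve the ND non-EEC libraries was not tested. In such sorted pools, fewer cells of a type and less RNA per cell cannot be told apart.

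**Figure D1:**
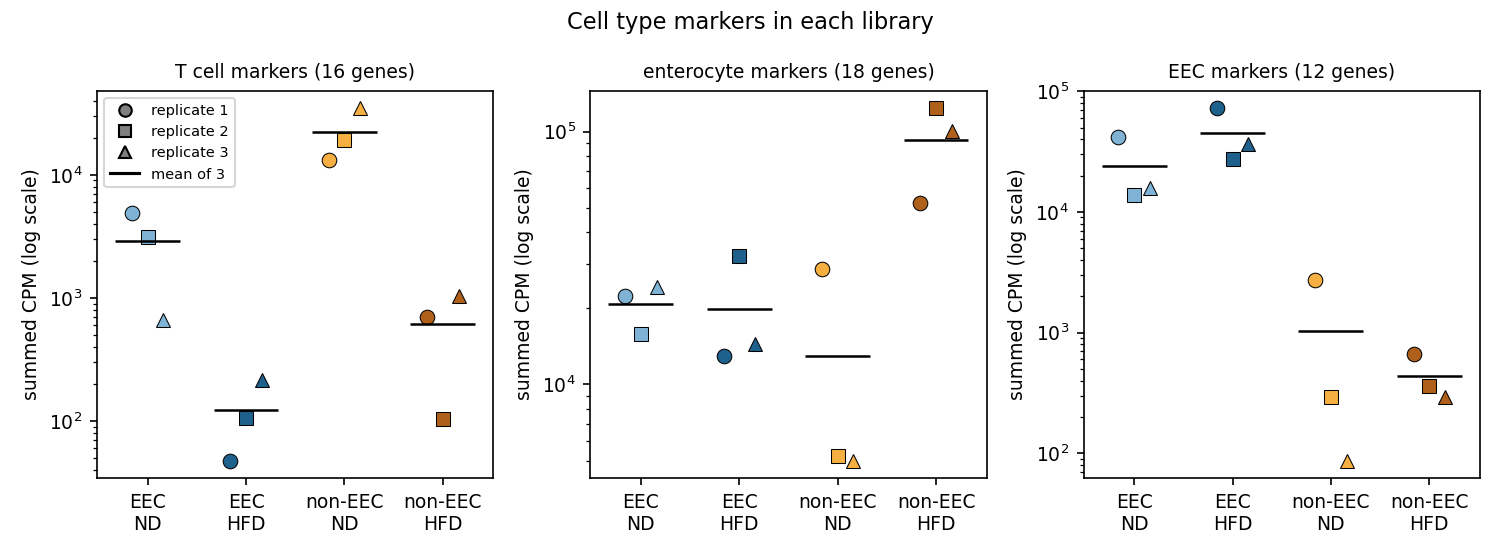
Summed CPM (log scale) of 16 T cell, 18 enterocyte and 12 EEC marker genes in each of the 12 libraries; symbols are replicates and lines are means of 3. T cell markers lie at 13100 to 34800 CPM in ND non-EEC and at 104 to 1030 CPM in HFD non-EEC, while enterocyte markers lie at 5000 to 28700 and at 52400 to 124000 CPM.

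Promoter sequences are printed for 5 nuclear members that the results below turn on: Sdhd and Cox5a, both lower in EEC; Atp5g3 and Cox7a1, the members with the smallest adjusted p for HFD in non-EEC; and Cox6a1, the complex IV member with the highest nuclear level per length. RefSeq promoter windows (build GRCm38.p6) matched 67 of the 85 nuclear members by symbol, and the 250 bases before the annotated start were searched on both strands for 4 sequence motifs of factors known to act on respiratory genes. The NRF1 motif GCGCATGCG was in 6 of 67 members (8.96%; 1.64% of the promoters of 27025 genes). The GABPA motif CCGGAAG was in 12 (17.9%; 7.83%), the estrogen-related receptor (ERR) motif TNAAGGTCA in 2 (2.99%; 1.30%) and the YY1 motif AAGATGGCG in 1 (1.49%; 0.710%). Capitals mark a match, on either strand: GABPA in Sdhd, NRF1 in Cox6a1 and ERR in Atp5g3. In Cox6a1 the capitals cover matches that overlap on the 2 strands. The stretches of Cox6a1 and Cox7a1 are printed only up to the gene start annotated in GENCODE (227 and 223 of the 250 bases searched), and Cox6a1 also holds a GABPA match past the end of its printed stretch. The stretches of Cox5a and Cox7a1 held none of the 4 strings. A match is a run of letters and was not tested as a binding site.
Sdhd (chr9:50603850-50604099, minus strand): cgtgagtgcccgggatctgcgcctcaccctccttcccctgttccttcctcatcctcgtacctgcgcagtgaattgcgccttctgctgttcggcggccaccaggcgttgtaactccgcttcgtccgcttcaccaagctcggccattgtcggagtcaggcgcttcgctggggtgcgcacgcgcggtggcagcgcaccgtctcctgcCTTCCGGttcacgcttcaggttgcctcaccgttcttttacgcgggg
Cox5a (chr9:57520982-57521231, plus strand): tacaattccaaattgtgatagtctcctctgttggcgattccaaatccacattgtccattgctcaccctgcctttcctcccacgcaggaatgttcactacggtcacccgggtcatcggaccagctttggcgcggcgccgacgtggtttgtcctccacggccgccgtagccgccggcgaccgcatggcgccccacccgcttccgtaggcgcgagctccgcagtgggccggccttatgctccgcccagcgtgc
Cox6a1 (chr5:115348982-115349208, minus strand): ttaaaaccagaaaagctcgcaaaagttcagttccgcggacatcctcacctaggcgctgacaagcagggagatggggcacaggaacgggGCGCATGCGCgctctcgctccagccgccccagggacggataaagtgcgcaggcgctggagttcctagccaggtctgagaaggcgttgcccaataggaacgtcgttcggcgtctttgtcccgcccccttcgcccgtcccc
Atp5g3 (chr2:73911327-73911576, minus strand): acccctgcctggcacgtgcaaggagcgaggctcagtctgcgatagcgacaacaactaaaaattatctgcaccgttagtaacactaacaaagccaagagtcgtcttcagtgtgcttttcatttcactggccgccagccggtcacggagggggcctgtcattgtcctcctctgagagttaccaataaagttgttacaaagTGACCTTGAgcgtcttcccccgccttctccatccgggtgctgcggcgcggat
Cox7a1 (chr7:30183921-30184143, plus strand): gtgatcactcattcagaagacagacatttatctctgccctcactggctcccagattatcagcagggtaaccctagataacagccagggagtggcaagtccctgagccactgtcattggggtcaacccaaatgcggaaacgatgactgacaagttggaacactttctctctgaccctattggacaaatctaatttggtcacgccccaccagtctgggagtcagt

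Mitochondrially encoded transcripts made up a larger share of these libraries than all nuclear members together. They took 10.3%, 8.69% and 5.42% of counts in replicates 1, 2 and 3 of ND EEC, and the HFD EEC libraries had 2.73%, 8.15% and 4.76%. In non-EEC they took 5.43%, 3.96% and 1.82% under ND and 6.11%, 10.5% and 9.95% under HFD. The 3 ND non-EEC values were thus all below the 3 HFD non-EEC values, and the EEC groups overlapped. Nuclear members took 1.08%, 0.874% and 1.08% in ND EEC, and HFD EEC libraries had 0.994%, 1.22% and 1.09%. In non-EEC they took 1.73%, 1.09% and 1.12% under ND and 1.98%, 1.42% and 2.17% under HFD. All 6 EEC libraries lay at or below 1.22% and all 3 HFD non-EEC libraries above it.

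The ratio of mitochondrial to nuclear counts differed between groups. It was 9.56, 9.95 and 5.0 in ND EEC against 3.13, 3.63 and 1.63 in ND non-EEC, with no overlap. Under HFD the populations overlapped, with 2.75, 6.69 and 4.37 in EEC and 3.08, 7.37 and 4.59 in non-EEC. A single gene, mt-Co1, held 36.5% to 56.9% of the mitochondrial mRNA counts of a library. Mitochondrial rRNA, from the same genome, held 0.204% to 1.06% of counts.

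**Figure D2:**
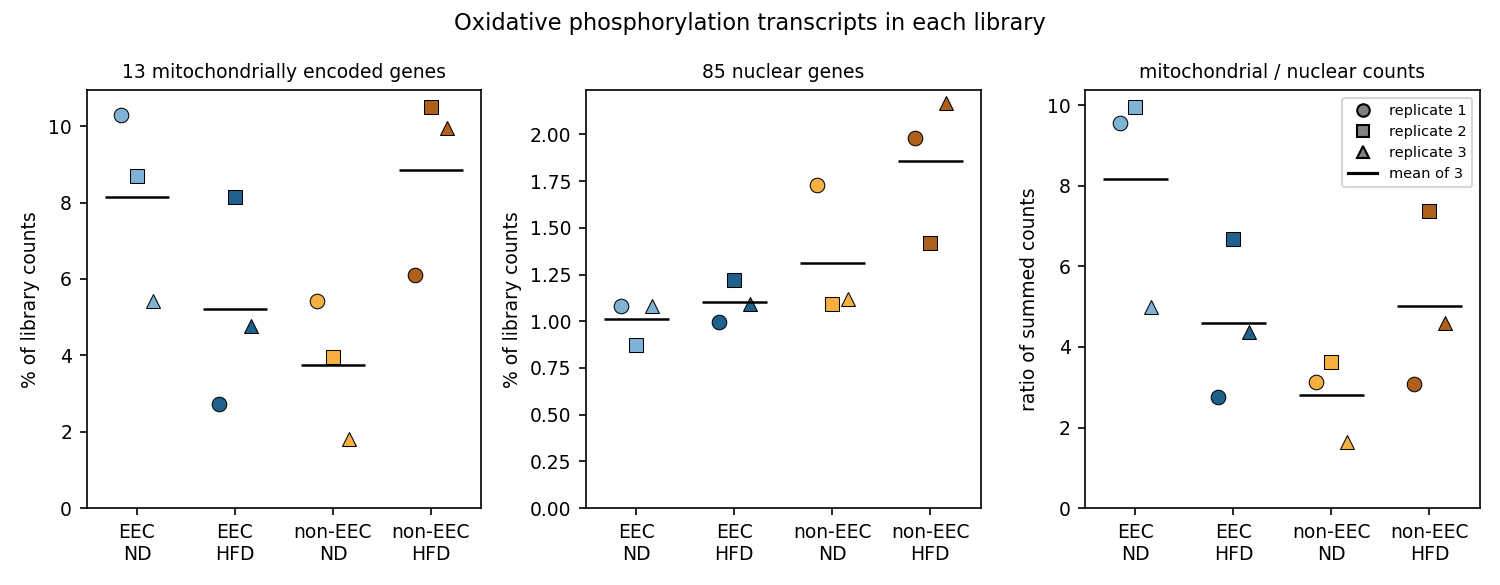
Percent of library counts from 13 mitochondrially encoded and 85 nuclear members, and the ratio of the 2 sums, in each library; symbols are replicates and lines are means of 3. Mitochondrial shares are 1.82% to 5.43% in ND non-EEC and 6.11% to 10.5% in HFD non-EEC, and the ratio reaches 9.95 in ND EEC.

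Low counts left 6 members untested: mt-Nd4l, Ndufa4l2, Cox4i2, Cox7b2, Cox8b and Cox8c. The other 92, of which 12 were mitochondrial and 80 nuclear (37 in complex I, 4 in II, 8 in III, 14 in IV and 17 in V), were tested with edgeR's quasi-likelihood test among 17087 genes. A gene is called when its p-value, adjusted by Benjamini-Hochberg over all 17087, is below 0.05. The labels give 3 mice per diet, and the p-values take each library as 1 replicate. All members were measured in the same libraries, so counts of members in 1 direction are not counts of independent results.

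Per kilobase of transcript, the mitochondrial genes kept a wide order of levels. Over 12 libraries the mean was 19750 CPM per kb for mt-Co1, the catalytic subunit of cytochrome c oxidase, 8599 for mt-Atp6, the proton channel subunit of ATP synthase, 6773 for mt-Cytb, cytochrome b of complex III, and 5606 for mt-Nd1, a membrane subunit of complex I. All these genes were measured in the same 12 libraries, so their spread over libraries does not decide this order, which was not tested. At the low end were mt-Nd3 at 384.1 and mt-Nd6 at 219.4. The gene mt-Nd4l had 7 counts over all libraries, too few to be tested, against 1022585 for mt-Nd4, which it overlaps at its end. Whether the way reads were counted lowered mt-Nd4l was not tested. The genes mt-Atp6 and mt-Atp8 also overlap in the genome, so their reads cannot be fully assigned.

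**Figure D3:**
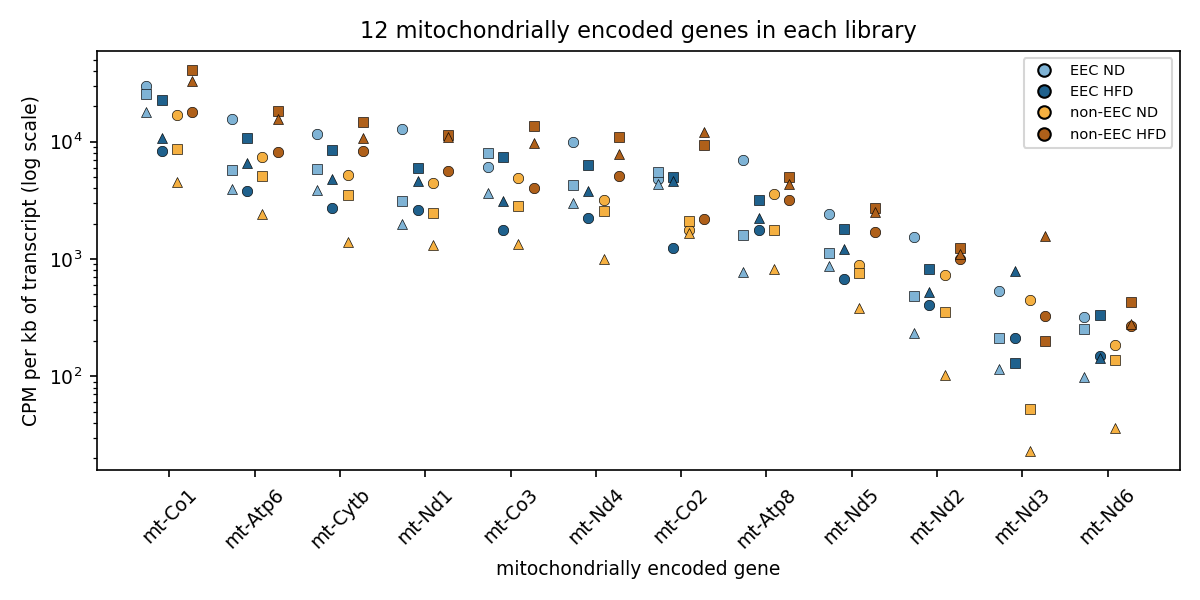
CPM per kb of transcript (log scale) of 12 mitochondrially encoded genes in each library, coloured by group, with replicates as circles, squares and triangles. The mean over 12 libraries runs from 219.4 for mt-Nd6 to 19750 for mt-Co1, and ND non-EEC replicate 3 is the lowest library for 10 of the 12 genes.

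The nuclear genes with the highest mean per kilobase in each complex were Ndufa4 (288.3 CPM per kb), Sdhd (228.7), Uqcr10 (357.5), Cox6a1 (585.3) and Atp5b (1693), the catalytic beta subunit of ATP synthase. Ndufa4 carries a complex I symbol, and its protein has since been placed in complex IV. Atp5b varied widely between libraries: its ND EEC libraries had 3772, 1135 and 1475 CPM and its HFD EEC libraries 3002, 2311 and 1501, against 5935, 1701 and 1713 in ND non-EEC and 6960, 4214 and 5201 in HFD non-EEC. Replicate 1 was its highest library in all 4 groups. Replicate 3 was the highest library in all 4 groups for 16 of 92 members (17.4%; 3.62% of all tested genes), among them Uqcr10, Atp5e, Ndufa4 and Cox7a2.

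Averaged over both diets, sorted EEC were compared with the rest of the villus cells. Nuclear members were lower in EEC: 17 of 92 tested members fell and 0 rose (18.5% of members fell; background 7.8% of genes lower and 13.8% higher), and all 17 were nuclear. Of the nuclear members 77 of 80 had a negative log2 fold change, with a median of -0.53 against -0.05 over all genes tested. The 12 mitochondrial members had a median of 0.01, with 6 above and 6 below 0, and none was called, had an unadjusted p below 0.05 (0 of 12), or was called by DESeq2 or limma-voom (0 and 0).

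The 17 belonged to complexes I, II, IV and V. Ndufv1, the NADH-binding subunit of complex I, had 50.45, 41.58 and 55.4 CPM in the ND EEC libraries and 63.35, 67.74 and 41.91 with HFD, against 99.34, 57.55 and 71.31 in ND non-EEC and 99.6, 114.2 and 196.9 in HFD non-EEC. Within each diet the EEC libraries lay below all non-EEC libraries. Its log2 fold change was -0.94 ± 0.24 (SE; edgeR adjusted p = 0.0141). Ndufa9 followed at -0.98 ± 0.27 (0.0204), Ndufs7 at -0.69 ± 0.21 (0.0283), and the complex IV genes Cox5b at -0.75 ± 0.21 (0.0231) and Cox5a at -1.13 ± 0.34 (0.0289). Sdhd, the membrane anchor of complex II, fell by 1.12 ± 0.32 (0.0219). Ndufa10, Ndufa13, Ndufb10, Sdhb, Cox6a2, Cox7b, Atp5a1, Atp5d, Atp5f1, Atp5h and Atp5o were also called. Of complex III 0 of 8 were called, 4 with an unadjusted p below 0.05, and Uqcr11 had the largest difference at -0.73 ± 0.33 (0.141).

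This count depended on single libraries. Leaving out 1 library gave 3 to 20 calls. Among EEC libraries, omitting replicate 1 of HFD gave 3 calls, replicate 3 of HFD 5, replicate 2 of ND 4 and replicate 3 of ND 10. Among non-EEC libraries, omitting replicate 3 of HFD gave 4, replicate 1 of ND 9 and replicate 2 of HFD 10. Over all genes, 1332 lower calls became 765 and 860 without replicates 1 and 3 of HFD EEC. They became 1230 and 860 without replicates 2 and 3 of HFD non-EEC. Without replicates 2 and 3 of ND EEC they were 1276 and 1013, and without replicate 1 of ND non-EEC 1362. The median of the nuclear members stayed between -0.63 and -0.40 in these fits.

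Under the normal diet the genomes parted. All 12 mitochondrial members had a positive log2 fold change in EEC against non-EEC, with a median of 1.02, while 57 of 80 nuclear members were negative, with a median of -0.25 (all genes: -0.02). Few of these differences were larger than the spread between libraries. No mitochondrial member was called (1 had an unadjusted p below 0.05; DESeq2 called 0 and limma-voom 1), and 1 nuclear member, Cox6a2, fell (background 4.9% of genes lower and 7.91% higher).

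For mt-Co1, ND EEC stood at 46180, 39080 and 27830 CPM and ND non-EEC at 26180, 13290 and 6982 CPM. Each EEC library was above each non-EEC library, as was also the case for mt-Co2 and for no other mitochondrial gene. These 2 of 12 were a share close to that of all genes (15.7% higher without overlap). The log2 fold change of mt-Co1 was 1.28 ± 0.69 (SE; edgeR adjusted p = 0.248). For mt-Nd1 the EEC values of 12170, 3012 and 1912 CPM overlapped the non-EEC values of 4212, 2340 and 1262 CPM, and its log2 fold change of 1.13 ± 0.71 (adjusted p = 0.322) was -0.12 without ND EEC replicate 1. That of mt-Atp6, 0.77 ± 0.65 (0.474), was -0.07 without the same library, and mt-Cytb was at 1.07 ± 0.64 (0.299).

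Under the high fat diet both genomes were lower in EEC than in non-EEC. All 12 mitochondrial members and 78 of 80 nuclear members had a negative log2 fold change, with medians of -0.98 and -0.86 (all genes: 0.00). The members that fell numbered 11 of 92, all nuclear, and 0 rose (12.0% of members; background 3.77% of genes lower and 10.2% higher). The replicate numbers were taken as pairs of HFD libraries, from correlated deviations of same-numbered libraries, which cannot show a shared mouse. With a replicate block 29 members fell, 10 of them among the 11 (1042 of 17087 genes lower, 645 without the block). The 29 included 4 mitochondrial genes (mt-Nd2, mt-Co2, mt-Co3 and mt-Cytb). Without the block 0 of 12 mitochondrial members were called (0 with an unadjusted p below 0.05; DESeq2 0, limma-voom 3).

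Complex II, the succinate dehydrogenase that also belongs to the tricarboxylic acid cycle, had the lowest median of the 5 complexes at -1.44, and 3 of its 4 genes fell. Sdhd stood at 182.5, 194.9 and 151.7 CPM in HFD EEC and 599, 419.8 and 596.7 CPM in HFD non-EEC. The groups did not overlap, and it fell by 1.61 ± 0.45 on the log2 scale (SE; edgeR adjusted p = 0.0310). Sdha, the flavoprotein that oxidizes succinate, fell by 1.47 ± 0.43 (0.0386) and Sdhb, the iron-sulfur subunit, by 1.41 ± 0.40 (0.0333). Sdhc, the other anchor, had 105.6, 187.2 and 86.75 CPM in EEC against 302.1, 280.4 and 245.1 CPM, and its difference of -1.12 ± 0.38 was not called (0.0649).

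The other complexes had medians of -0.67 (I), -0.97 (III), -0.99 (IV) and -0.83 (V). In complex I, Ndufab1, the mitochondrial acyl carrier protein, fell by 1.13 ± 0.30 (edgeR adjusted p = 0.0238), Ndufs1, an iron-sulfur subunit of the NADH arm, by 1.12 ± 0.30 (0.0271) and Ndufv1 by 1.25 ± 0.34 (0.0293). In complex III, Uqcrfs1, the Rieske iron-sulfur protein, had 69.89, 101.8 and 99.94 CPM in EEC and 186.4, 203.5 and 245.5 CPM in non-EEC, and fell by 1.23 ± 0.36 (0.0367). Cox5a and Cox7b in complex IV and Atp5f1 and Atp5o, both of the stalk of ATP synthase, complete the 11. Of the nuclear members 46 of 80 had EEC libraries that were all below the non-EEC libraries (background 14.9% of genes), and of the mitochondrial members 1 of 12, mt-Nd2. For mt-Co1 the EEC values were 12890, 35220 and 16570 CPM and the non-EEC values 27740, 63350 and 50890 CPM, which overlapped.

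Single libraries decided the calls. The count was 0 when replicate 1 or 3 of HFD EEC or replicate 3 of HFD non-EEC was left out, 3 without replicate 2 of HFD non-EEC and 19 without replicate 1 of ND non-EEC. Over all genes, 645 lower calls became 50 and 80 without replicates 1 and 3 of HFD EEC. Without replicates 2 and 3 of HFD non-EEC they became 223 and 148, and without replicate 1 of ND non-EEC 1045. The nuclear median stayed between -0.97 and -0.62 and the mitochondrial median between -1.39 and -0.70 in these fits. T cell markers were 47.9 to 216 CPM in HFD EEC and 104 to 1030 CPM in HFD non-EEC, while enterocyte markers were 13000 to 32100 and 52400 to 124000 CPM, and the part of the latter was not tested.

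**Figure D4:**
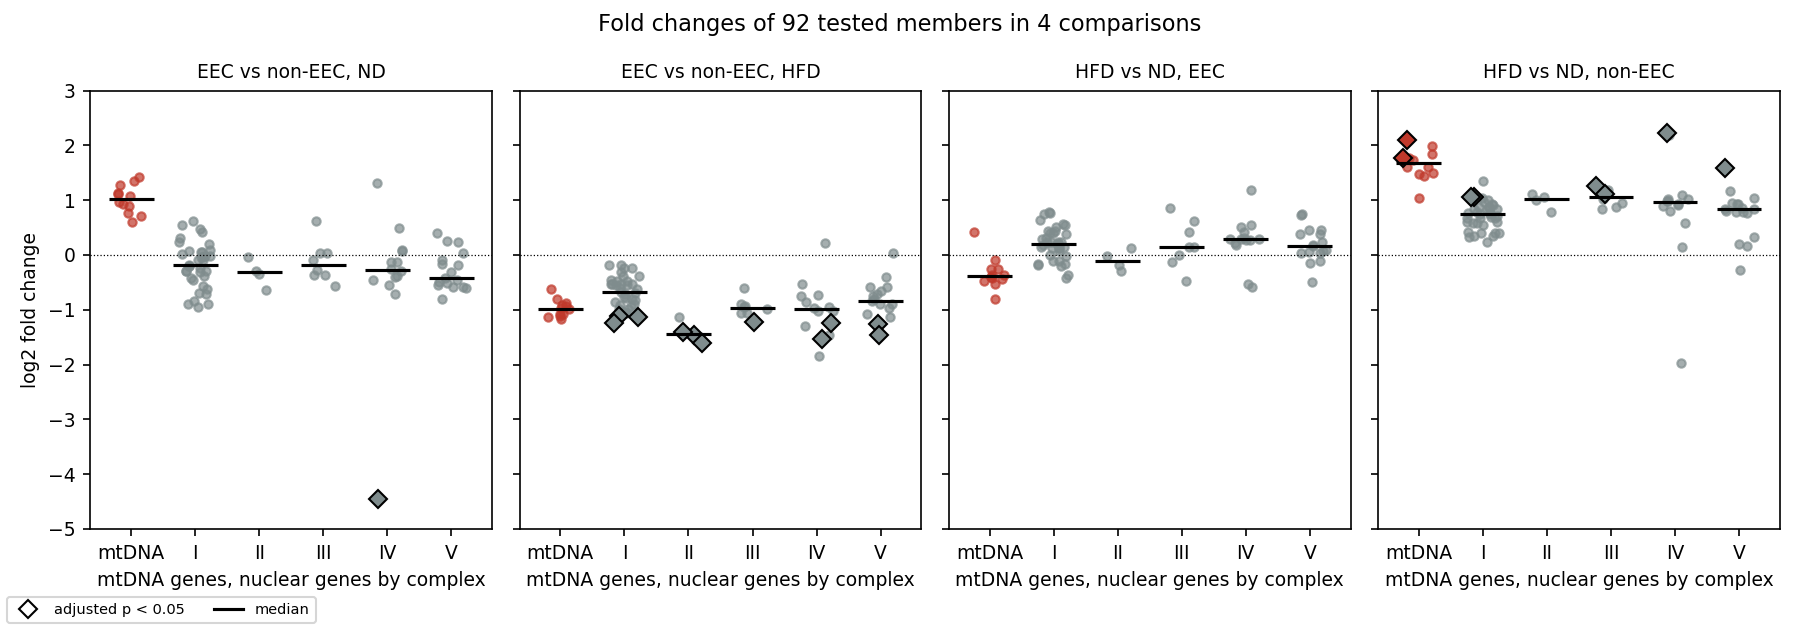
Log2 fold changes of 92 tested members in 4 comparisons, for the mitochondrial genes (red) and for nuclear genes by complex; diamonds have an adjusted p below 0.05 and lines are medians. Mitochondrial medians are 1.02 for EEC against non-EEC under ND, -0.98 under HFD, -0.39 for HFD against ND in EEC and 1.67 in non-EEC.

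The comparison of the diets within EEC asked what the high fat diet changed in the hormone cells. No member was called by edgeR (0 of 92, background 0.0% of genes, since edgeR called no gene), and 1 had an unadjusted p below 0.05. DESeq2 and limma-voom called 0 and 0 members, and 465 and 8 of all 17087 genes. The nuclear members had a median of 0.19 and the mitochondrial members of -0.39 (all genes: 0.00), and the latter ran from -0.79 to 0.23 when 1 library was left out. For mt-Co1 the ND values were 46180, 39080 and 27830 CPM and the HFD values 12890, 35220 and 16570 CPM, a log2 fold change of -0.81 ± 0.69 (edgeR adjusted p = 0.814).

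Within non-EEC, members of both genomes were higher under HFD. All 12 mitochondrial and 78 of 80 nuclear members had a positive log2 fold change, with medians of 1.67 and 0.84 (all genes: -0.10). The members that rose numbered 8 of 92 and 0 fell (8.70% of members; background 5.76% of genes higher and 9.15% lower), a share not far from that of all genes. They were 2 mitochondrial genes (mt-Co2 and mt-Nd5) and 6 nuclear ones. Members whose HFD libraries all lay above the ND libraries numbered 39 of 80 nuclear and 9 of 12 mitochondrial (background 15.1% of genes). This comparison and that of EEC with non-EEC under HFD share the 3 HFD non-EEC libraries.

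Atp5g3, which encodes the c subunit of the ATP synthase rotor ring, had 268.6, 197.2 and 238.9 CPM in ND non-EEC and 505.7, 522.5 and 1094 CPM in HFD non-EEC. It rose by 1.59 ± 0.41 on the log2 scale (SE; edgeR adjusted p = 0.0233). Cox7a1, the complex IV isoform known from heart and muscle, had 29.46, 9.039 and 11.67 CPM against 26.66, 89.6 and 117.8 CPM, so that replicate 1 of HFD lay inside the ND range, and it rose by 2.22 ± 0.61 (0.0283). Ndufb5 had 81.15, 75.7 and 80.57 CPM against 157.6, 126.5 and 209.9 CPM (0.0302). Ndufs1 rose by 1.06 ± 0.30 (0.0337), Uqcrfs1 by 1.26 ± 0.36 (0.0331) and Uqcrq by 1.11 ± 0.35 (0.0490).

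For mt-Co2 the values were 1199, 1429 and 1131 CPM under ND and 1511, 6420 and 8260 CPM under HFD, and it rose by 2.1 ± 0.64 (edgeR adjusted p = 0.0424). For mt-Nd5 they were 1621, 1390 and 694.4 against 3100, 4944 and 4618 CPM, a rise of 1.77 ± 0.54 (0.0432). The other mitochondrial examples were at 1.61 ± 0.70 for mt-Co1 (0.136), 1.77 ± 0.72 for mt-Nd1 (0.111), 1.73 ± 0.65 for mt-Cytb (0.0894) and 1.5 ± 0.66 for mt-Atp6 (0.140). The 4 succinate dehydrogenase genes lay between 0.79 and 1.10 and were not called. The count was 0 when any of replicates 2 and 3 of ND non-EEC or replicate 3 of HFD non-EEC was left out. It was 2 without replicate 3 of HFD EEC or replicate 2 of HFD non-EEC and 4 without replicate 1 of HFD non-EEC. It was 28 without replicate 1 of ND non-EEC, which stood apart by its goblet cell and enterocyte markers. Over all genes, 985 higher calls became 198 and 263 without replicates 2 and 3 of ND non-EEC. Without replicates 1, 2 and 3 of HFD non-EEC they became 794, 250 and 356. They became 668 without replicate 3 of HFD EEC and 1968 without replicate 1 of ND non-EEC. The medians stayed between 1.33 and 2.06 (mitochondrial) and 0.60 and 0.91 (nuclear).

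**Figure D5:**
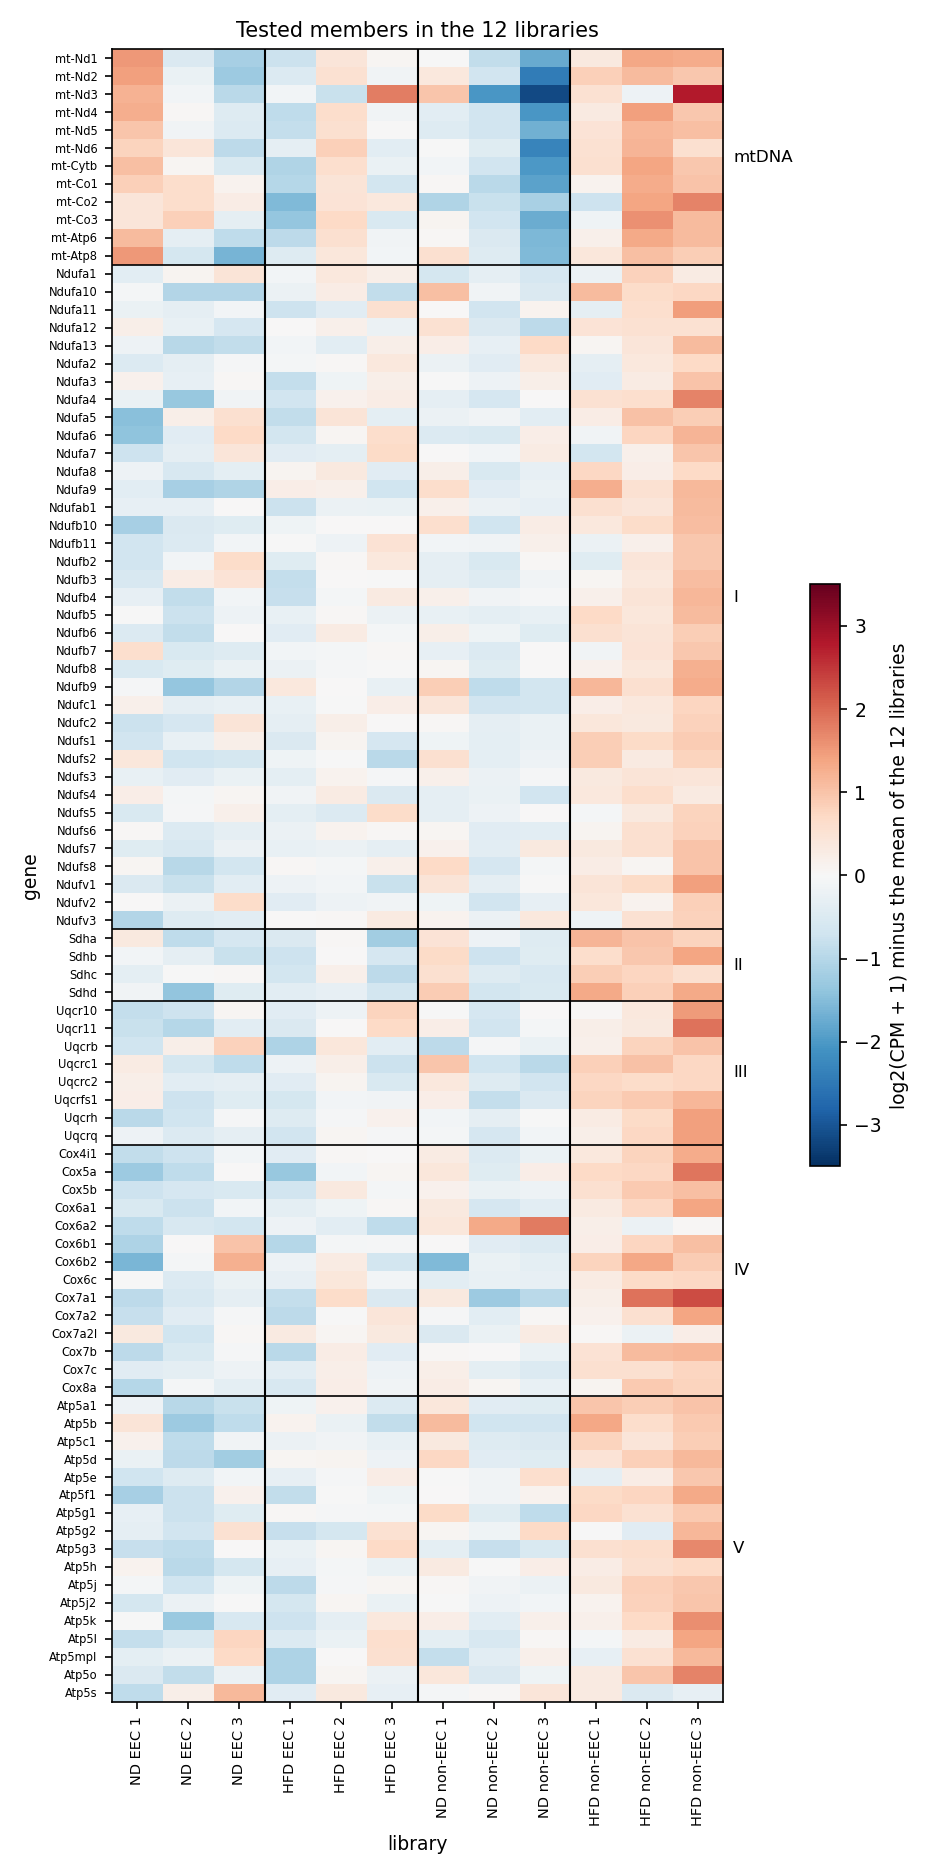
Level of 92 tested members in 12 libraries as log2(CPM + 1) minus the mean of the gene over the 12 libraries, sorted by genome and complex. HFD non-EEC libraries are red for most genes, and the mitochondrial genes in ND non-EEC replicate 3 are the bluest block of the map.

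The difference of the diet effects between the populations was tested directly, as the change with HFD in EEC minus that in non-EEC. It was negative for 12 of 12 mitochondrial members (median -2.08) and 71 of 80 nuclear members (median -0.61; all genes 0.11). No member was called (0 of 92, background 0.497% of genes in either direction). An unadjusted edgeR p below 0.05 was found for 16 of 92 members and for 2815 of all 17087 genes. DESeq2 called 4 members and limma-voom 15, and over all genes they called 1061 and 2183. The difference was -2.54 ± 0.88 for mt-Co2 (edgeR adjusted p = 0.181), -2.42 ± 0.98 for mt-Co1 (0.243) and -2.2 ± 1.0 for mt-Nd1 (0.292). When 1 library was left out, the mitochondrial median ran from -2.59 to -1.30, the nuclear median from -0.77 to -0.35 and the mt-Nd1 difference from -2.71 to -0.97.

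Some subunits have paralogous forms, of which a cell usually makes mainly the general one. Per kilobase over 12 libraries, Cox6a1 averaged 585.3 CPM and Cox6a2, its heart and muscle form, 1.828 CPM. Cox6a2 counts were 0, 3 and 6 in the ND EEC libraries, 10, 5 and 0 in those of HFD EEC, 19, 52 and 97 in ND non-EEC and 19, 5 and 8 in HFD non-EEC. It fell by 4.45 ± 1.2 in EEC under ND (edgeR adjusted p = 0.0289), on few counts, and in the libraries with the most T cell markers it was highest. Cox6b1 averaged 271.9 CPM per kb and Cox6b2, the testis form, 5.707. Cox7a2 averaged 211.9, Cox7a2l 165.4 and Cox7a1 83.69 CPM per kb, and Cox7a2l, which encodes a factor of respiratory supercomplexes, did not part the groups (0.14 ± 0.23 in EEC over both diets, adjusted p = 0.716).

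Cox4i1 averaged 494.6 CPM per kb, and Cox4i2, the hypoxia-induced form, had 4 counts over all libraries. Cox8a averaged 333.8, Cox8b had 5 counts in all and Cox8c 0. Ndufa4l2 had 2 counts in all. Of the 3 genes for the identical mature c subunit, Atp5g3 averaged 548.8, Atp5g2 39.15 and Atp5g1 25.01 CPM per kb, where the long annotated transcript of Atp5g1 lowers its value.

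Other genes around respiration were read from lists of related genes in HFD against ND non-EEC, where 5.76% of all tested genes were called higher and 9.15% lower. Of 16 genes for electron carriers, 5 rose, among them Etfa and Etfdh, which pass electrons from fatty acid oxidation to the chain (1.67 ± 0.34, edgeR adjusted p = 0.00843, and 1.51 ± 0.34, 0.0115), and Cycs, cytochrome c (1.44 ± 0.34, 0.0158). Of 19 tricarboxylic acid cycle genes 4 rose, with Sucla2 at 2.05 ± 0.38 (0.00497), and their median was 0.95. Of 46 tested assembly factors 2 rose (Coa7 and Ttc19), no larger a share than that of all genes, and of 76 mitochondrial ribosomal proteins and 27 genes of mitochondrial DNA expression 0 were called, with medians of 0.12 and -0.01. Of 12 tested regulators 1 was called, Ppara, the fatty acid sensor, which rose by 1.87 ± 0.53 (0.0340). The 12 had 6 positive and 6 negative log2 fold changes, with a median of 0.06. Of 18 glycolysis genes Tpi1 rose and Hk1 fell by 2.64 ± 0.41 (0.00307).

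The ADP/ATP carriers, which exchange the product of complex V, went in opposite directions in that comparison: Slc25a5 rose by 1.45 ± 0.42 (edgeR adjusted p = 0.0360) and Slc25a4 fell by 2.14 ± 0.54 (0.0204). In EEC against non-EEC under HFD, 7 of 19 tricarboxylic acid cycle genes and 3 of 16 electron carrier genes fell (background 3.77% of genes lower), and Slc25a4 rose by 3.93 ± 0.58 (0.000825) while Slc25a5 fell by 1.35 ± 0.42 (0.0480). Of 12 tested regulators 1 was called in EEC against non-EEC under HFD, with 8 negative and 4 positive. It was Esrra, a nuclear receptor known to act on respiratory genes, which fell by 1.91 ± 0.49 (0.0216). Library scaling shifts such values: by library totals alone the median of all genes in HFD against ND non-EEC went from -0.10 to -0.50, and members were then at 0.44 (nuclear) and 1.25 (mitochondrial), still above it. For EEC against non-EEC under HFD the same change moved the median of all genes from 0.00 to 0.26, with members at -0.57 (nuclear) and -0.67 (mitochondrial).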

How the data were processed

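Counts per gene were deposited by the authors as whole numbers for 39086 Ensembl identifiers and 12 libraries. The submitters' processing notes list HTSeq 0.5.4p3, Bowtie2 2.1.0, TopHat2 2.0.10 and CASAVA 1.8.2, with build mm10. How strand was handled, which annotation was used and how overlaps were counted were not given in the sources used here. Overlapping and near-identical genes are therefore uncertain. Per the labels' protocols, the Ovation RNA-Seq System V2 kit was used for cDNA. Symbols came from GENCODE vM21 for 37607 identifiers (96.2%). No library pair of a group agreed within counting noise (chi-square per gene at least 61.8).

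Genes kept by filterByExpr (17087) were fitted with edgeR 4.0.16 in R 4.3.3: TMM factors, 4 group means over 12 libraries, 8 residual degrees of freedom, quasi-likelihood tests, Benjamini-Hochberg adjustment and calls below 0.05. TMM factors were 0.732 to 0.940 in HFD non-EEC and 1.0 to 1.22 in ND non-EEC. CPM use these factors, and CPM per kb the longest principal coding transcript, a choice made after values were seen. The test was tried on simulated counts.

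Named genes were, per comparison, up to 6 called members in each direction with the smallest adjusted p and at least 10 CPM in 1 group, the highest and most different nuclear member of each complex, paralogues, succinate dehydrogenase genes, 4 mitochondrial examples and up to 3 called genes of each other list. Cox6a2 under ND, mt-Nd5, Uqcrq, Sdhb, other complete counts, the printed promoters and the motifs were named after values were seen. The NRF1 string was shortened from 10 to 9 letters after its first result had been seen. The members and lists were chosen with earlier results of these data known.

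Whether replicate numbers pair EEC with non-EEC libraries was checked by correlating deviations from group means: 0.234 to 0.247 under HFD, and 0.142, 0.227 and -0.013 under ND. With every pair required to exceed 0.1, the numbers were taken as pairs under HFD only, a hint from the data and not from the labels. Libraries of different diets share no mouse. Yet replicate 3 of ND non-EEC correlated at 0.234 with replicate 3 of HFD non-EEC and at 0.214 with that of HFD EEC. Other same-numbered pairs across diets went down to -0.114. These correlations therefore cannot show which libraries share a mouse. The replicate block of the population comparisons used the ND numbers too. Alternatives were RLE factors, library sizes without mitochondrial genes, no filter, a filter of 5 CPM in 3 libraries, DESeq2 1.42.0, limma-voom with quality weights (limma 3.58.1), a replicate block, only the 6 libraries compared and leaving out each library. Library totals without scaling factors and a block over all 4 groups were added after seeing the data. Figures used matplotlib 3.10.9.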

Additional observations from a re-analysis of the deposited data

How the results depend on the processing

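The number of called members depended on the processing more than the medians did. In EEC against non-EEC over both diets, 17 calls became 5 by library totals without scaling factors, 8 without a filter, 27 with DESeq2 and 33 with limma-voom. Under ND, 1 call became 0 with a filter of 5 CPM and 3 with limma-voom. Under HFD, 11 became 1 by library totals, 6 without a filter, 27 with DESeq2, 50 with limma-voom and 17 with a replicate block over all 4 groups. For HFD against ND in non-EEC, 8 became 1 by library totals, 33 with DESeq2, 84 with limma-voom (1 of them lower) and 3 with only the 6 libraries compared. For the difference of diet effects, 0 became 4 with DESeq2 and 15 with limma-voom. Calls over all 17087 genes changed as well. Over both diets, 3685 became 4795 with DESeq2, 5556 with limma-voom and 3413 by library totals. Under HFD, 2393 became 3753, 4385 and 2319. For HFD against ND in non-EEC, 2549 became 4053, 6929 and 2834. For HFD against ND in EEC, 0 became 465, 8 and 0. For the difference of diet effects, 85 became 1061, 2183 and 121. The cause was not tested.

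With the replicate block as a paired fit, calls were 25 over both diets, 5 under ND, 29 under HFD and 1 for the difference of diet effects. Of the 5 under ND, 4 were mitochondrial genes higher in EEC. Over all genes, the paired fit called 3689 over both diets, 2145 under ND and 2804 under HFD. The ND numbers were not taken as pairs, since replicate 3 did not correlate (-0.013), but the paired fit blocked on them too. For diet in non-EEC the block was no pairing. It joined same-numbered libraries over all 4 groups, and so different mice, and gave 16 calls. Leaving out 1 library gave 3 to 20 calls over both diets, 0 to 1 under ND, 0 to 19 under HFD, 0 to 28 for diet in non-EEC and 0 to 1 for the difference, and 0 to 0 for diet in EEC. Where an arm then held 2 libraries, the spread was shared over all groups.

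Of 52 single gene results, 1109 values under alternatives kept direction and side of the threshold in 896, lost the call in 165, gained it in 44 and turned in 4. The 4 were mt-Nd1 (-0.12; range over left-out libraries -0.12 to 1.62) and mt-Atp6 (-0.068; -0.068 to 1.16) under ND, and Cox7a2l over both diets (-0.003 with limma-voom; -0.008 to 0.29 over left-out libraries). By library totals the share of higher among all called genes went from 73.0% to 86.2% for EEC under HFD and from 38.6% to 17.6% for diet in non-EEC. Cox6a2 rested on 0 to 97 counts a library, and how depth bears on the calls was not tested.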
